A study of Mus musculus with 14 samples.

Results

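The genes described here encode the contractile apparatus of smooth muscle and of myofibroblasts, and they were chosen by name: Acta2, Tagln, Myh11, Cnn1, Des, Actg2, Myocd, Lmod1, Mylk and Synpo2. All 10 were measured, each by 1 of the 21212 probe sets of the table, a probe set being the group of array probes that reads 1 Entrez gene. Lungs were taken from mice at postnatal day 6 on the C57BL/6J strain, and their total RNA was hybridised to 14 arrays. One set of arrays held 4 lungs of Atxn1L -/- mice and 4 wild-type lungs, and the other held 3 lungs of Atxn1 -/- mice and 3 wild-type lungs, from intercrosses of heterozygotes of each line. Genotypes are those of the sample titles: the design text also calls these sets Atxn1L and Atxn1 knockouts, but where it counts the pairs of mice it writes Atxn1-/- for both. The Atxn1l transcript was low in the first set's knockouts (6.68 to 7.05 against 9.29 to 9.59 in wild types), while the Atxn1 probe set did not differ detectably in the second (10.99 to 11.04 against 10.92 to 11.14), so the arrays do not show the loss there. That probe set may lie outside the deleted part, in which case it checks nothing. The labels name no treatment. The labels give neither the sex nor the litter of a mouse. The Xist level stands in for sex as a covariate below. It was 6.32 to 7.04 on replicate 1 of each knockout and on replicates 1 and 2 of each wild-type group. On all other arrays it was 12.97 to 13.29, so knockouts and wild types were not balanced for it.

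Smooth muscle cells contract when myosin pulls on actin filaments, and calcium switches this on through a kinase that phosphorylates the myosin light chain. The genes of this machinery are driven together by serum response factor and its coactivators of the myocardin family, which act at CArG boxes, short A- and T-rich stretches flanked by C and G. In the lung of a mouse pup the products lie in airway and vascular smooth muscle and, for Acta2 and a few others, in the myofibroblasts at the tips of growing septa that divide the air sacs during the first weeks after birth. The products of Atxn1 and Atxn1l, a pair of similar proteins, bind the repressor Capicua, and the comparison asks whether transcripts of lung cells shift when either is lost.

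The promoters of Acta2 and Lmod1 are shown because theirs were the windows in which a CArG box was found. The windows run from 250 bases before to 50 after a transcription start in RefSeq (GRCm38.p6), and 6 of the 10 genes had one. Each was placed at 1 annotated start, which need not be the outermost one of the gene. For Acta2 and Mylk the start used lies inside the gene's annotated span, far inside for Mylk. Distances below are from the start used. Capitals mark CArG boxes with at most 1 mismatch, searched on both strands with a motif that reads the same on either. The Acta2 window lies at chr19:34255324-34255623 on the minus strand and the Lmod1 window at chr1:135324563-135324862 on the plus strand.
Acta2: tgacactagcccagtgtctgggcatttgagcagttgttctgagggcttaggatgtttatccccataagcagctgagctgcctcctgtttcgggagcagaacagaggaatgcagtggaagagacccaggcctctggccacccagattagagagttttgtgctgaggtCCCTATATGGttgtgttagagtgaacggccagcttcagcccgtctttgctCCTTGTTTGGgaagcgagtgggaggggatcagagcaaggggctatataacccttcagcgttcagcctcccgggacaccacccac
Lmod1: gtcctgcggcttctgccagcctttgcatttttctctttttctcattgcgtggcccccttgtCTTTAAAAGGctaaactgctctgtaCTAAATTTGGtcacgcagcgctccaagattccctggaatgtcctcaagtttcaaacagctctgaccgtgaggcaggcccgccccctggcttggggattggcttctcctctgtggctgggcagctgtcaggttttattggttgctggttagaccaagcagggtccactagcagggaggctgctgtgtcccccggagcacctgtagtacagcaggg
The Acta2 window held 2 such boxes, starting 84 and 34 bases before the start, and the Lmod1 window held 2, starting 189 and 164 bases before it. Each of these 4 boxes had 1 mismatch. No such box was found in the windows of Cnn1, Des, Mylk and Synpo2. Among all 32841 windows of that length in the table, 21.1% held a box with at most 1 mismatch and 1.63% an exact one, so a match of this kind is common and is given as a description of the sequence only.

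Neither knockout moved the contractile programme by a detectable amount in these lungs. None of the 10 genes passed an adjusted p under 0.05 (limma, adjusted over all 21212 probe sets) in the Atxn1l knockout or in the Atxn1 knockout, and none had an unadjusted p under 0.05 in either. Across all probe sets 0.0424% passed the adjusted threshold in the Atxn1l knockout and 0% in the Atxn1 knockout, and 8.5% and 1.22% had an unadjusted p under 0.05. In the Atxn1l knockout 6 genes lay above and 4 below their wild types, with a median log2 change of 0.02 beside 0.00 over all probe sets. In the Atxn1 knockout 9 lay above and 1 below, with a median of 0.04 beside 0.00, and the adjusted p was 0.999886 for each of the 10. Knockout and wild-type arrays overlapped for all 10 genes in both sets, where 5.32% of all probe sets in the Atxn1l set and 4.75% in the Atxn1 set had no overlap.

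The 95% intervals say how large a change these arrays leave possible. Over the 10 genes they ran from -0.29 (Des) to 0.29 (Cnn1) in the Atxn1l knockout, or 0.817-fold to 1.22-fold of the wild-type level. In the Atxn1 knockout they ran from -0.25 to 0.42, both bounds those of Lmod1, or 0.839-fold to 1.34-fold. These are the widest bounds of the 10, and each gene has its own, narrowest for Acta2 (-0.05 to 0.15 and -0.09 to 0.14). Leaving out 1 array in turn changed the sign of 6 of the 10 estimates in the Atxn1l knockout and 7 in the Atxn1 knockout. The effects of the knockouts were also compared with each other: 0 of the 10 differences passed (smallest adjusted p = 0.999553, limma) and 0 had an unadjusted p under 0.05, where 0.00943% and 3.24% of all probe sets did. The differences ranged from -0.12 for Des to 0.05 for Cnn1. In whole lung, a change in the number of contractile cells and a change in contractile RNA per cell could not be told apart.

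**Figure D1:**
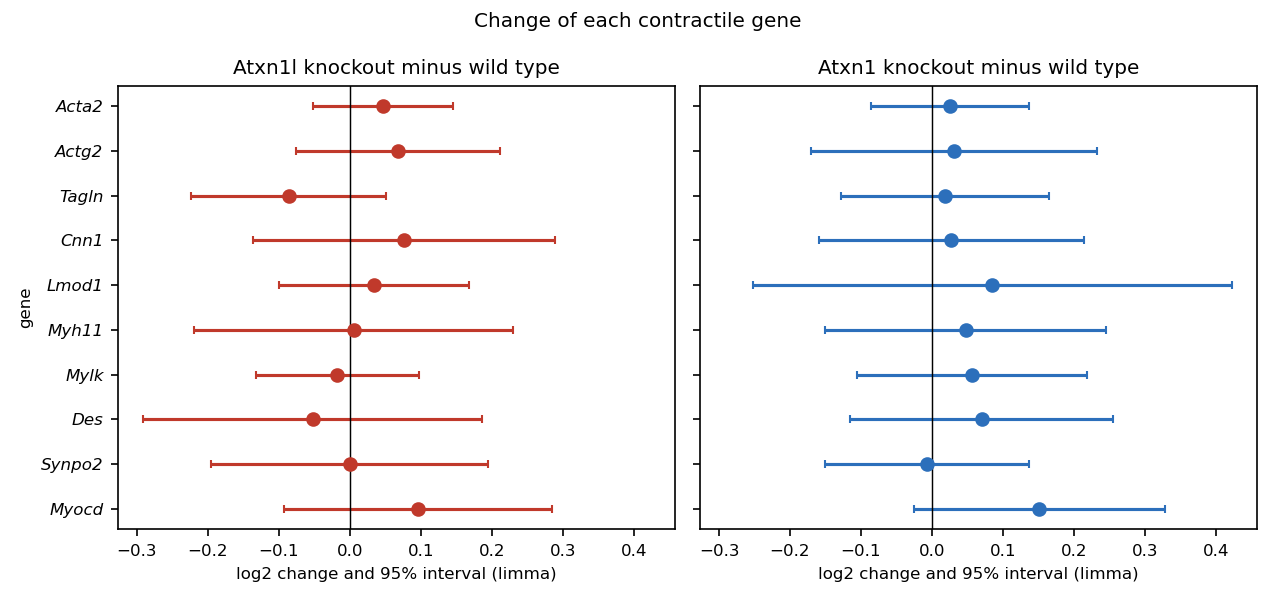
Log2 change of each contractile gene (points) with its 95% interval from limma (bars), in the Atxn1l knockout on the left (4 against 4 arrays) and the Atxn1 knockout on the right (3 against 3). Every interval includes 0, and the widest is that of Lmod1 in the Atxn1 knockout, from -0.25 to 0.42.

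Levels below are log2 RMA values in the order of replicates 1 upward. A level in the Atxn1l set cannot be set against one in the Atxn1 set, since the authors normalized these sets apart. The thin filament comes first. Acta2, smooth muscle alpha-actin and the usual marker of airway muscle and alveolar myofibroblasts (Entrez gene 11475), read 12.86, 12.91, 12.90 and 12.94 in the Atxn1l knockouts and 12.84, 12.81, 12.87 and 12.90 in their wild types. All 4 knockouts lay above the wild-type mean, but the groups overlapped and the change was 0.05 (SE 0.04, 95% interval -0.05 to 0.15, adjusted p = 0.835). In the Atxn1 knockouts Acta2 read 13.29, 13.29 and 13.25, against 13.21, 13.25 and 13.27 in the wild types. The groups again overlapped, with a change of 0.03 (SE 0.05, 95% interval -0.09 to 0.14). Acta2 was the steadiest of the 10, with a residual SD between arrays of 0.04 (Atxn1l set, the 3.65 percentile of all probe sets) and 0.03 (Atxn1 set, the 4.06 percentile).

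Actg2 (11468), the gamma-actin of airway and gut smooth muscle, read 10.78, 10.85, 10.99 and 10.95 in the Atxn1l knockouts and 10.87, 10.69, 10.85 and 10.90 in their wild types. Replicates 3 and 4 of the knockouts were above every wild type and replicate 1 was below all but 1. The change was 0.07 (SE 0.06, 95% interval -0.08 to 0.21, adjusted p = 0.835). In the Atxn1 set the knockouts read 11.88, 11.74 and 11.59 and the wild types 11.76, 11.74 and 11.61. The knockouts held both the highest and the lowest array, and the change was 0.03 (SE 0.09, 95% interval -0.17 to 0.23). The proteins of Acta2, Actg2 and the striated muscle actin genes are near-identical, and how far their probe sets read each other's transcripts was not tested.

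Tagln (21345), transgelin or SM22-alpha, binds along actin filaments. Its levels were 10.75, 11.00, 10.97 and 10.94 in the Atxn1l knockouts and 11.00, 10.93, 11.03 and 11.03 in their wild types. All 4 knockouts were below the wild-type mean, replicate 1 by the most, and the lowest wild type fell among them. With -0.09 (SE 0.06, 95% interval -0.22 to 0.05, adjusted p = 0.764), Tagln had the most negative change of the 10 in that knockout. Without knockout replicate 1 the change was -0.03 (SE 0.05, adjusted p = 0.915, limma). In the Atxn1 set Tagln read 11.66, 11.58 and 11.66 in the knockouts, all between the wild-type values 11.56, 11.72 and 11.57, for a change of 0.02 (SE 0.06, 95% interval -0.13 to 0.17).

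Cnn1 (12797), calponin, which restrains actin-activated myosin and marks mature smooth muscle, was measured at 9.80, 9.68, 9.96 and 9.88 in the Atxn1l knockouts. Wild types of that set had 9.76, 9.48, 9.87 and 9.90, where replicate 2 was lowest of the 8 arrays. The change was 0.08 (SE 0.10, 95% interval -0.14 to 0.29, adjusted p = 0.890), with the groups overlapping, and -0.01 without wild type replicate 2. The Atxn1 knockouts had 10.39, 10.27 and 10.14 and their wild types 10.28, 10.30 and 10.15, a change of 0.03 (SE 0.08, 95% interval -0.16 to 0.21). Knockout replicate 1 was highest and replicate 3 lowest of those 6 arrays.

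Lmod1 (93689), a leiomodin that starts new actin filaments in smooth muscle, read 7.98, 8.02, 8.18 and 7.94 in the Atxn1l knockouts and 8.03, 8.01, 8.03 and 7.91 in their wild types. Only knockout replicate 3 was above the wild types, and the change was 0.03 (SE 0.06, 95% interval -0.10 to 0.17, adjusted p = 0.930). In the Atxn1 set its values were 9.04, 9.21 and 9.11 in the knockouts and 9.38, 8.84 and 8.88 in the wild types. Wild type replicate 1 was above all 3 knockouts and the other two wild types below them, and Lmod1 had the widest interval, at 0.08 (SE 0.14, 95% interval -0.25 to 0.42). Without wild type replicate 1 the change was 0.26 (SE 0.06, adjusted p = 0.907, limma with 2 wild types). Its residual SD of 0.22 in this set was at the 94.6 percentile of all probe sets.

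The motor and its switch follow. Myh11 (17880), the heavy chain of smooth muscle myosin and its most specific marker, read 10.60, 10.84, 10.97 and 10.82 in the Atxn1l knockouts and 11.06, 10.71, 10.65 and 10.80 in the wild types. Knockout replicate 1 was the lowest and wild type replicate 1 the highest of the 8 arrays, and the change was 0.01 (SE 0.10, 95% interval -0.22 to 0.23, adjusted p = 0.994). In the Atxn1 knockouts it read 11.58, 11.35 and 11.37, with replicate 1 above every wild type (11.46, 11.43 and 11.27) and the others within their range. That change was 0.05 (SE 0.08, 95% interval -0.15 to 0.24).

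Mylk (107589), myosin light chain kinase, which turns the calcium signal into contraction, read 11.63, 11.80, 11.75 and 11.78 in the Atxn1l knockouts and 11.77, 11.71, 11.75 and 11.80 in the wild types. Apart from knockout replicate 1, the 8 arrays lay between 11.71 and 11.80. The change was -0.02 (SE 0.05, 95% interval -0.13 to 0.10, adjusted p = 0.965). Its Atxn1 knockouts read 12.31, 12.20 and 12.19 and the wild types 12.22, 12.25 and 12.06, where wild type replicate 3 was lowest of the 6. The change there was 0.06 (SE 0.07, 95% interval -0.10 to 0.22), with the groups overlapping. The Mylk locus also makes a long non-muscle kinase, and 1 probe set per gene does not separate isoforms.

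Of the scaffold genes, Des (13346) encodes desmin, the intermediate filament of all muscle types. It read 10.28, 10.54, 10.61 and 10.66 in the Atxn1l knockouts and 10.73, 10.31, 10.56 and 10.70 in the wild types. Knockout replicate 1 and wild type replicate 2 were low together, below the other 6 arrays, and the change was -0.05 (SE 0.11, 95% interval -0.29 to 0.19, adjusted p = 0.942). Leaving out knockout replicate 1 gave 0.03, and leaving out wild type replicate 2 gave -0.14. In the Atxn1 set Des read 11.35, 11.25 and 11.18 in the knockouts and 11.17, 11.32 and 11.08 in the wild types, an overlapping pair of groups with a change of 0.07 (SE 0.08, 95% interval -0.12 to 0.26).

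Synpo2 (118449), myopodin or synaptopodin-2, links actin bundles to Z-discs and adhesion sites. Its values of 8.71, 8.98, 9.12 and 8.90 in the Atxn1l knockouts spanned those of the wild types (9.03, 8.78, 8.95 and 8.95). The group means differed by 0.00 (SE 0.09, 95% interval -0.20 to 0.20, adjusted p = 0.999). The Atxn1 knockouts read 9.64, 9.46 and 9.53 and the wild types 9.57, 9.50 and 9.58. This was the 1 gene of the 10 with a change below 0 in that knockout, at -0.01 (SE 0.06, 95% interval -0.15 to 0.14).

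Myocd (214384), myocardin, the coactivator that switches the programme on in smooth and cardiac muscle, had the highest estimate of the 10 in both knockouts without passing in either. In the Atxn1l set it read 9.32, 9.34, 9.45 and 9.41 in the knockouts and 9.38, 9.02, 9.31 and 9.43 in the wild types. Wild type replicate 2 was the lowest of the 8 arrays, and the change of 0.10 (SE 0.08, 95% interval -0.09 to 0.28, adjusted p = 0.820) became 0.01 without it. In the Atxn1 set the knockouts read 9.97, 9.91 and 10.05 and the wild types 9.78, 9.73 and 9.96. All 3 knockouts were above the wild-type mean, but wild type replicate 3 was above 1 of them. The change was 0.15 (SE 0.07, 95% interval -0.03 to 0.33, adjusted p = 0.999886), with an unadjusted p of 0.0830. Without wild type replicate 3 it was 0.22 (unadjusted p = 0.0162, adjusted p = 0.99989, limma with 2 wild types).

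**Figure D2:**
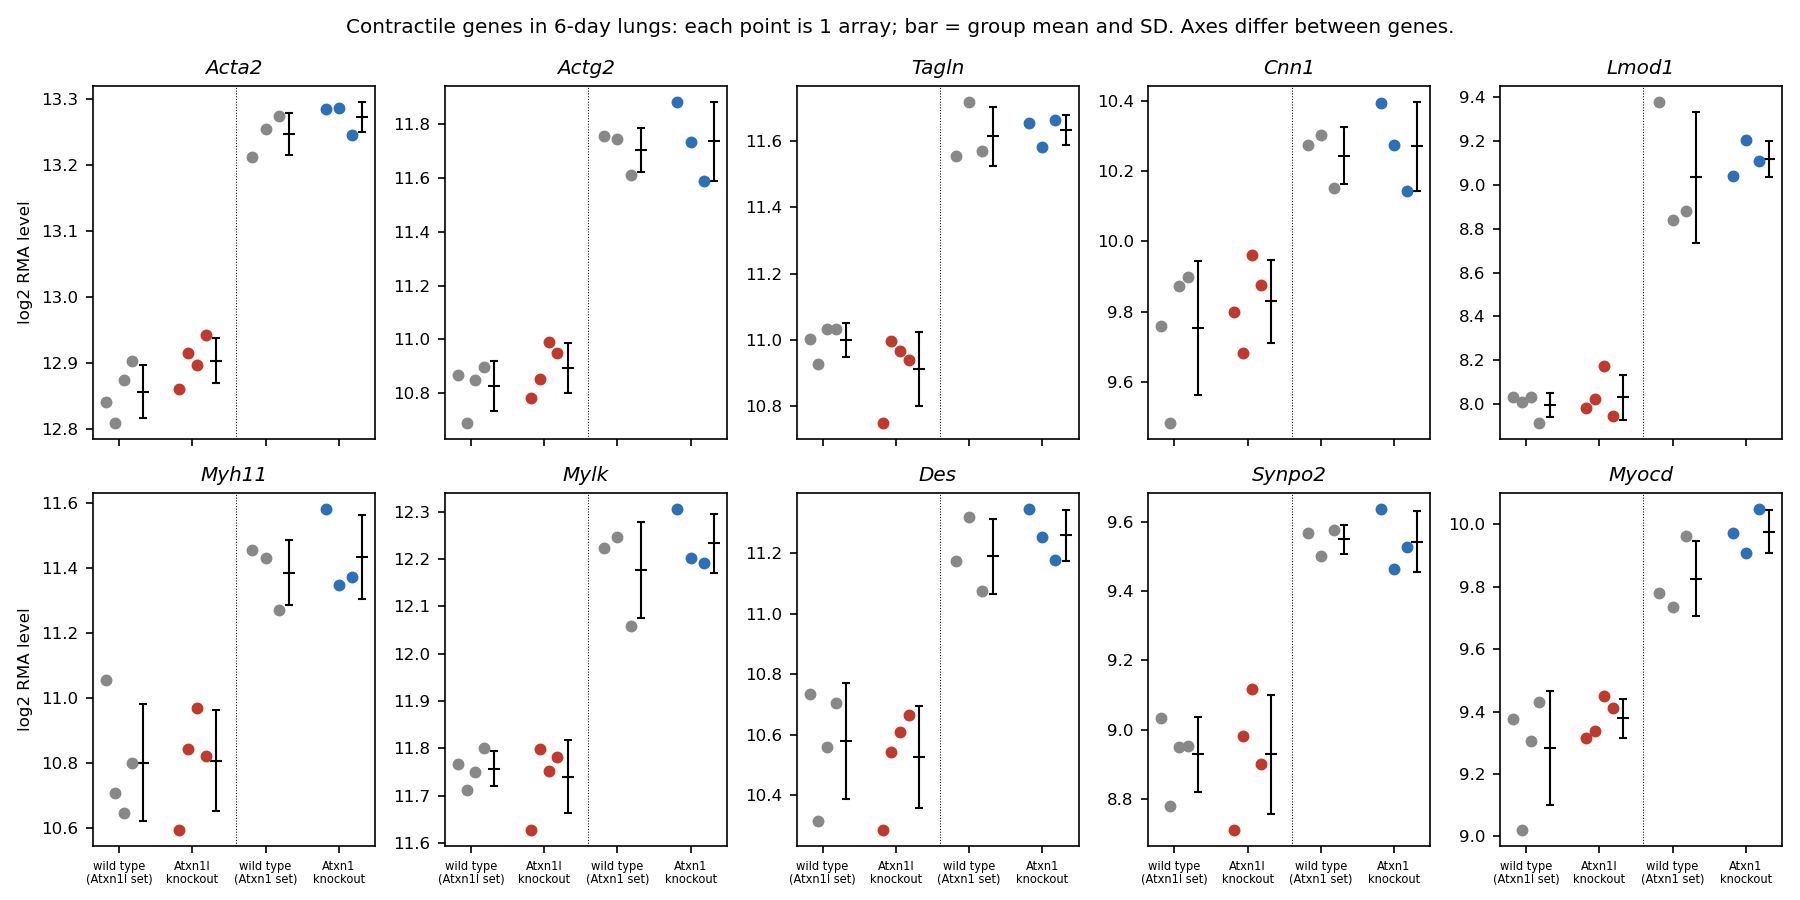
Log2 RMA level of the 10 contractile genes on each of the 14 arrays, 1 panel per gene with its own y axis. Points are arrays in order of replicate, bars beside them the group mean and SD, and the dotted line parts the separately normalized sets. Knockout and wild-type points overlap in every panel on both sides of the line.

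Arrays of one genotype differed in their contractile transcripts, and in the Atxn1l set most of the 10 genes did so together. With 1 array per lung, differences between mice and between arrays cannot be told apart. Each value was taken as its deviation from the mean of its group. On Atxn1l knockout replicate 1 all 10 genes were below their group mean, on average by -0.12, and on wild type replicate 2 of that set 9 of 10 were, with a mean of -0.13. On knockout replicate 3, 9 of 10 were above (mean 0.09), and on wild type replicate 1, 9 of 10 (mean 0.07). Over the 8 arrays, 43 of the 45 pairs of genes had a Pearson correlation of deviations above 0, with a median r of 0.65, reaching 0.94 for Tagln with Mylk and 0.92 for Actg2 with Des. Over the 6 arrays of the Atxn1 set 31 of 45 pairs were above 0 with a median r of 0.14, from -0.78 for Des with Myocd to 0.99 for Actg2 with Cnn1. These are descriptions of few arrays, whose deviations share the array's normalization and sum to 0 within a group. The share of pairs above 0 among other genes was not counted, so the counts show no trait particular to the 10. Atxn1l knockout replicate 1 also had a median over all probe sets of 8.53, against 8.44 to 8.48 on the other arrays of its set. Measured against the mean of the other 9 over all 14 arrays, Des (r = 0.87), Actg2 (0.85) and Synpo2 (0.81) followed the group most closely, and Lmod1 the least (0.04). These r pool both sets, which differed. Pairs with Synpo2 ran from 0.46 (Acta2) to 0.85 (Tagln) in the Atxn1l set. In the Atxn1 set they ran from -0.08 (Tagln) to 0.57 (Myh11).

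The median residual SD of the 10 genes was 0.11 in the Atxn1l set and 0.10 in the Atxn1 set, beside 0.09 and 0.09 over all probe sets. In the Atxn1l set Des (0.18, at the 91.6 percentile), Myh11 (0.17) and Cnn1 (0.16) spread the most, while Mylk (0.06) and Acta2 spread least. The same arrays also differed in other cell types. Means of myofibroblast and pericyte markers lay -0.19 and -0.15 from the group mean on Atxn1l knockout replicate 1. On wild type replicate 2 of that set they lay at -0.10 and -0.09. On wild type replicate 3 of the Atxn1 set they lay at -0.10 and -0.08, and on Atxn1 knockout replicate 3 at -0.001 and -0.003. In each of the 4 groups, the array with the lowest mean over the 10 genes was the one with the highest mean over 10 neutrophil genes. Contractile means were 10.27 on Atxn1l knockout replicate 1 against 10.40 to 10.49 on the other knockouts, where neutrophil means were 10.63 against 8.89 to 9.29. On wild type replicate 2 of that set they were 10.25 against 10.39 to 10.45, beside neutrophil means of 9.01 against 8.23 to 8.76. On wild type replicate 3 of the Atxn1 set they were 10.94 against 11.01 to 11.04, beside 11.13 against 9.04 to 9.14, and on Atxn1 knockout replicate 3 they were 11.01 against 11.03 to 11.11, beside 9.60 against 9.31 to 9.37. In the Atxn1l knockout all 10 neutrophil genes were above 0, 5 of them at an unadjusted p under 0.05 (50% beside 8.5% of all probe sets). In the Atxn1 knockout 0 of 10 were above 0. There wild type replicate 3 stood apart, and the other wild types (9.04 and 9.14) had lower neutrophil means than every knockout (9.31 to 9.60). The link did not hold over all other arrays. Wild type replicate 1 had the highest contractile mean of its group in both sets (10.45 and 11.04). Its neutrophil mean of 8.76 in the Atxn1l set was above those of replicates 3 and 4 (8.31 and 8.23). In the Atxn1 set its 9.14 was above the 9.04 of replicate 2. That the array lowest in contractile mean was highest in neutrophil mean was noticed in the data. The part of leukocytes in the contractile values was not tested. Without Atxn1l knockout replicate 1 the median change of the 10 genes in the Atxn1l knockout was 0.07 in place of 0.02, and still 0 passed.

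**Figure D3:**
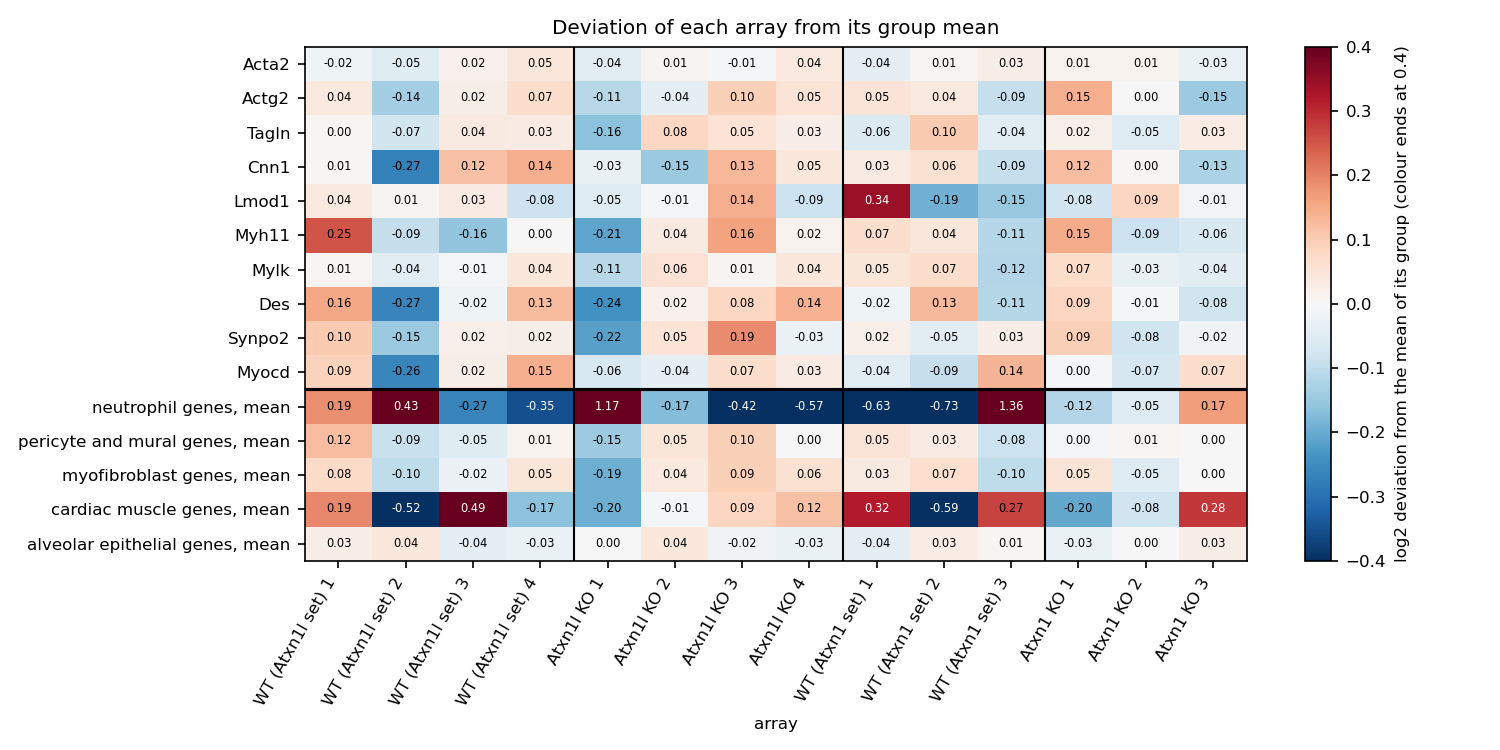
Log2 deviation of each array (columns) from the mean of its group, for the 10 contractile genes (upper rows) and the means of 5 marker lists (lower rows), with black lines between groups. Red is above and blue below the group mean, with colour ending at 0.4. Atxn1l knockout replicate 1 and wild type replicate 2 of that set are blue in nearly all contractile rows and above their group mean in the neutrophil row (1.17 and 0.43).

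Among 9317 other genes with a level above the median in both sets, those whose deviations followed the mean of the 10 most closely over the 14 arrays were Anxa6, a calcium-dependent membrane-binding annexin (r = 0.95), Sox7, a transcription factor of endothelium (0.95), Igsf10 (0.94), Adamts8, a secreted metalloproteinase (0.93), Prkacb, a catalytic subunit of protein kinase A (0.93), and Ctnnd1, p120-catenin of cell junctions (0.93). They were picked as the highest of 9317 values, so the size of r carries no test. Some followed less closely in the Atxn1 set: Adamts8 had 0.99 in the Atxn1l set and 0.63 in the Atxn1 set, and Prkacb 0.96 and 0.77. None of the 6 passed in either knockout (unadjusted p from 0.177 to 0.989).

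Genes that work beside the 10 were read in lists. Of 24 other parts of the smooth muscle contractile apparatus, 0 passed in either knockout, and medians were -0.01 in the Atxn1l and 0.02 in the Atxn1 knockout. The 1 with an unadjusted p under 0.05 was Actn1, the alpha-actinin of dense bodies and adhesions, at 11.61 ± 0.05 against 11.47 ± 0.06 in the Atxn1l knockout (SD, n = 4 each; change 0.13, adjusted p = 0.515, limma). Synm, the intermediate filament protein synemin, had -0.11 there and 0.11 in the Atxn1 knockout, and Mustn1 had -0.24 (SE 0.14) in the Atxn1l and 0.20 (SE 0.12) in the Atxn1 knockout.

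Of 22 transcriptional regulators of smooth muscle genes, 0 passed in either knockout. In the Atxn1l knockout 4 had an unadjusted p under 0.05, 2 higher and 2 lower: Heyl, a Notch target of vascular smooth muscle (0.23, SE 0.05, adjusted p = 0.318), Mrtfa, a myocardin-related coactivator (0.14, SE 0.05, adjusted p = 0.423), Tcf21, a factor of lung fibroblasts (-0.23, SE 0.07, adjusted p = 0.420), and Hey1 (-0.29, SE 0.10, adjusted p = 0.498). That is 18.2% of the list beside 8.5% of all probe sets, and the list's median was 0.01. Srf, which encodes serum response factor itself, had 0.06 (SE 0.04). In the Atxn1 knockout the median was 0.03, none had an unadjusted p under 0.05, and Mrtfa had 0.07, Heyl 0.01 and Tcf21 0.01.

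Signals that set muscle tension (33 of 34 genes measured) had 0 genes past either threshold in both knockouts, with medians of 0.00 and 0.00. The smallest p belonged to Ednra, an endothelin receptor (0.11, SE 0.05), Kcnmb1, the smooth muscle subunit of a calcium-activated potassium channel (0.15, SE 0.08), and Prkg1, the cyclic GMP-dependent kinase that relaxes muscle (-0.12, SE 0.06), all in the Atxn1l knockout. Transforming growth factor beta induces Acta2 in fibroblasts. Of 17 genes of its pathway 0 passed, and 4 had an unadjusted p under 0.05 in the Atxn1l knockout, all higher, or 23.5% beside 8.5% of all probe sets. Among them were the ligand Tgfb1, at 10.81 ± 0.06 against 10.58 ± 0.08 (SD, n = 4 each; change 0.23, adjusted p = 0.310), and the receptor Tgfbr2 (0.14, adjusted p = 0.460). The median was 0.03 in that knockout and 0.07 in the Atxn1 knockout, where 15 of 17 were above 0 and none had an unadjusted p under 0.05.

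The cells that could hold the 10 genes were checked by their markers. Of 14 markers of alveolar and interstitial myofibroblasts 3 were above 0 in the Atxn1l knockout (median -0.09) and 12 in the Atxn1 knockout (median 0.08), and 0 passed in either. Aspn, asporin of the matrix, read 12.02 ± 0.28 against 12.35 ± 0.08 in the Atxn1l knockout (SD, n = 4 each; change -0.32, adjusted p = 0.520), P2ry14, a receptor for UDP-sugars, had -0.19 (adjusted p = 0.587), and Stc1 had -0.15 (SE 0.18) there and 0.20 (SE 0.09) in the Atxn1 knockout. Pdgfra, the receptor that septal myofibroblasts depend on, had -0.12 (SE 0.13) and 0.12 (SE 0.08). The myofibroblast mean of Atxn1l knockout replicate 1 deviated by -0.19 from its group. Of 12 pericyte and mural markers 5 and 9 were above 0, with medians of -0.02 and 0.04. Higd1b of pericytes (-0.12, adjusted p = 0.527) and Trpc6 (-0.14, adjusted p = 0.603) had the smallest p. Of 12 genes of other fibroblasts 4 and 6 were above 0, with medians of -0.05 and -0.01, and in the Atxn1l knockout Tcf21, also of this list, had -0.23 (adjusted p = 0.420) and Pi16 of adventitial fibroblasts 0.33 (adjusted p = 0.539). No gene of these lists passed.

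**Figure D4:**
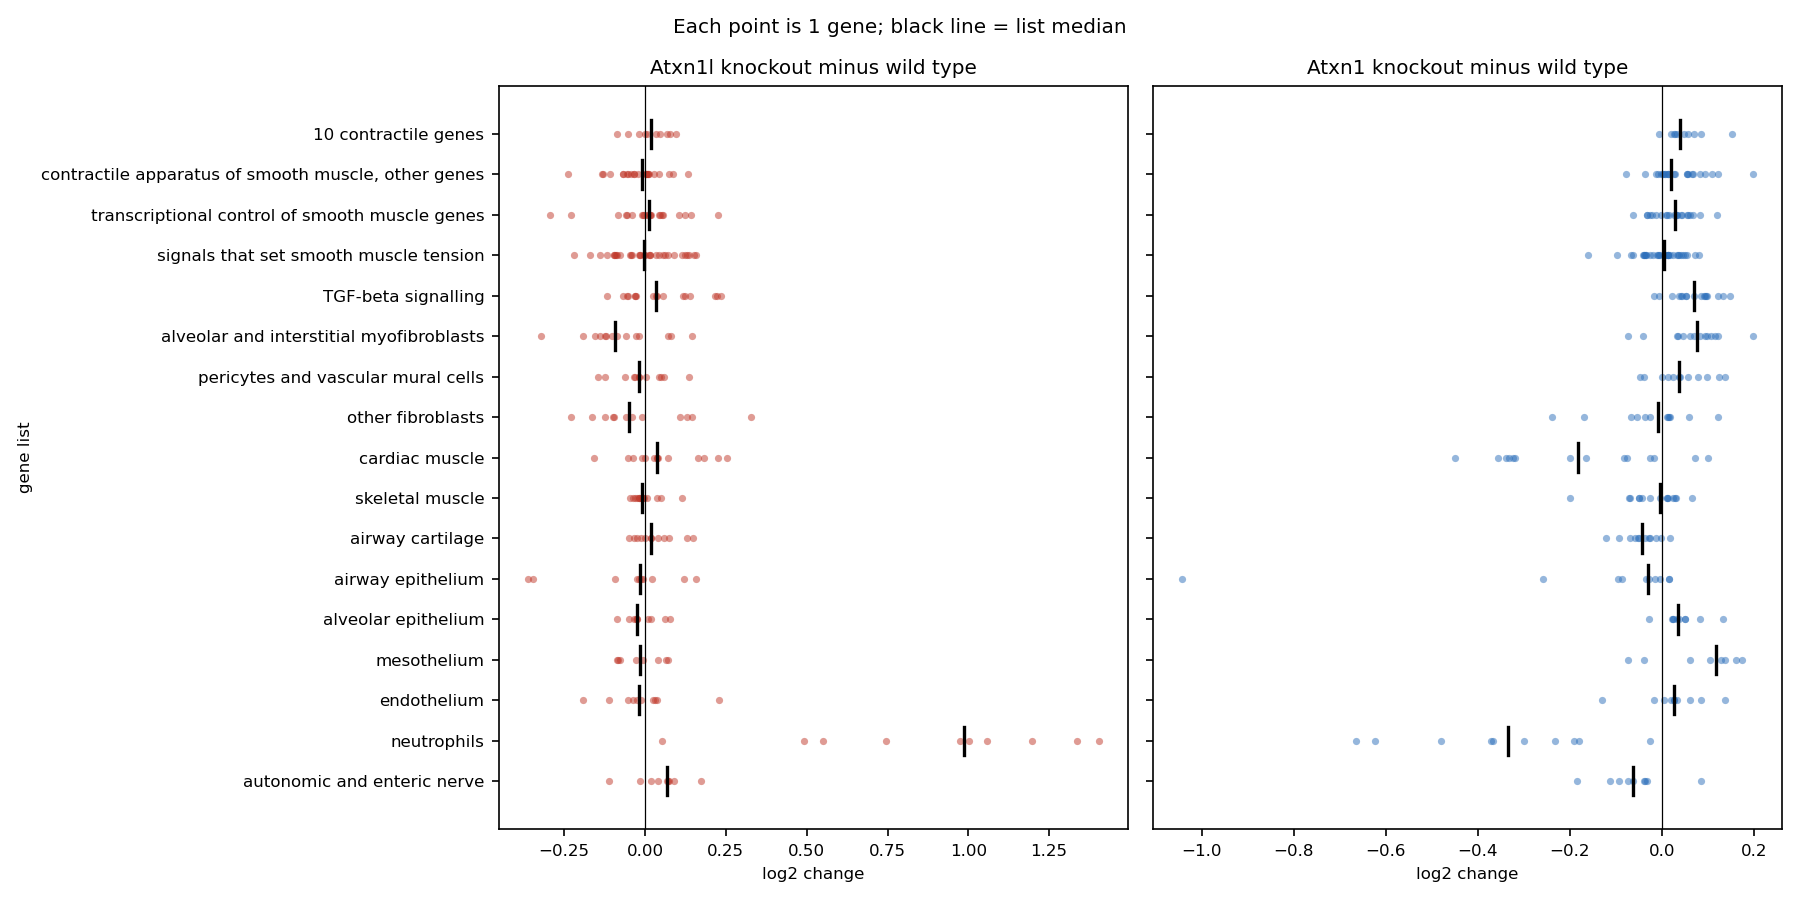
Log2 change of every gene (points) of the 10 contractile genes and of 16 gene lists, with the list median (black line), in the Atxn1l knockout on the left and the Atxn1 knockout on the right (x axes differ). The contractile genes stay between -0.09 and 0.15, and of the list medians those of the neutrophil genes lie farthest from 0, at 0.99 and -0.33.

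Markers of other tissue that a dissection can carry along were read as well. Cardiac muscle markers, which mouse lungs hold in the walls of their pulmonary veins, were spread widely between arrays. Their mean ran from 8.05 to 9.06 over the wild types of the Atxn1l set and from 9.01 to 9.91 over those of the Atxn1 set. The knockouts lay at 8.43 to 8.74 and 9.22 to 9.70, and medians of the 14 changes were 0.04 and -0.18. Des and Myocd are also made by heart muscle. On wild type replicate 2 of the Atxn1l set the cardiac mean, Des and Myocd were all low (-0.52, -0.27 and -0.26 from the group mean). On wild type replicate 2 of the Atxn1 set the cardiac mean was -0.59 while Des was 0.13 and Myocd -0.09. The part of heart muscle in these values was not tested. Skeletal muscle (15 markers), airway cartilage (12) and nerve (9) had means of 7.09 to 7.26, 7.56 to 7.78 and 6.98 to 7.12 in the Atxn1l set, with median changes of -0.01, 0.02 and 0.07. In the Atxn1 set their median changes were 0.00, -0.04 and -0.06. The mean of 10 alveolar epithelial genes was 12.09 to 12.17 in the Atxn1l and 12.55 to 12.66 in the Atxn1 set, with median changes of -0.03 and 0.03. Median changes were -0.02 and -0.03 for 10 airway epithelial genes, -0.02 and 0.12 for 8 of mesothelium, -0.02 and 0.03 for 10 of endothelium, and 0.99 and -0.33 for the 10 of neutrophils. In no list did a gene pass in either knockout.

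Arrays of a set were closely alike (each correlated with its closest neighbour at r of at least 0.994), and no pair was identical.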

How the data were processed

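Transcript levels were read on 14 arrays of whole lung, each hybridised with 100 ng of total RNA. The deposited values are log2 levels that the authors made with RMA (background correction, quantile normalization and a summary per probe set), per the submitters' processing notes and the series' design text, whose closing note says that the 8 arrays of the Atxn1l set and the 6 of the Atxn1 set were processed separately. The genome build and the version of the probe set definition are not given in the sources used here. Of 233 list memberships 232 were matched to a probe set, by the platform's gene table or the Entrez number.

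Knockouts were tested against the wild types of their own set by limma 3.58.1 (R 4.3.3, lmFit and eBayes, no covariate, two-sided), for all 21212 probe sets, with Benjamini-Hochberg adjustment over all of them and a threshold of 0.05. The difference between knockouts was a contrast in 1 fit of 14 arrays with 4 group means. Fold bounds are powers of 2 of the log2 bounds. The step was tested on simulated data. The genes named were the 10 members, up to 3 genes of smallest p in each list, and the 6 genes closest in pattern, with Srf, Hey1 and Pdgfra added after their values were seen, and some genes that this rule takes are not reported here. The members and lists were chosen with earlier results of these data known. Promoters come from RefSeq (GRCm38.p6). The number of arrays limits the precision. The labels tell of pairs of mice but not which arrays form one, and p-values measure the spread between these samples. Alternatives were a term for the replicate number, a trended and robust prior, weights per array, only probe sets above the median level, quantile normalization of all arrays together, centring on medians, a covariate for the Xist level and leaving out each array. Changes in splicing were not analysed here.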

Additional observations from a re-analysis of the deposited data

How the results depend on the processing

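None of the 10 contractile genes passed an adjusted p under 0.05 in either knockout, or for the difference between knockouts, under any alternative that was run for it. Changes larger than their standard error kept their direction. In the Atxn1 knockout the count at an unadjusted p under 0.05, 0 as reported, was 4 with array weights (Lmod1, Myh11, Mylk and Des, smallest adjusted p = 0.148), a fit that put 4131 probe sets at that p in place of 258. It was 0 to 1 when each array was left out. Without wild type replicate 1 the gene was Lmod1, in a fit that put 936 probe sets at that p. Without wild type replicate 3 it was Myocd, in a fit that put 283 there. Neither gene passed the adjusted threshold. The median change of the 10 genes in the Atxn1 knockout, 0.04 as reported, was 0.11 with array weights and 0.10 with the Xist covariate, and 0.00 to 0.08 when each array was left out. In the Atxn1l knockout it ran from -0.02 to 0.07 when each array was left out, and was 0.00 with median centring. It was 0.06 with array weights and 0.02 with the Xist covariate. With that covariate Tagln had -0.12 there (SE 0.05, unadjusted p = 0.0509, adjusted p = 0.510, limma). The cause of these shifts was not tested. Whether the replicate numbers pair the arrays could not be decided, since deviations of so few arrays sum to 0 within a group. Same-numbered deviations correlated at 0.09, 0.04, 0.23 and 0.38 in the Atxn1l set and 0.00, -0.42 and 0.42 in the Atxn1 set. Differently numbered ones ran from -0.24 to 0.25 and from -0.37 to 0.37. With the replicate block the medians were 0.02 and 0.04 and 0 contractile genes passed, and the count over all probe sets went from 9 to 2 in the Atxn1l knockout. That count was 1 with the filter on dim probe sets, which left out Lmod1, and 2 to 25 when each array was left out. In the Atxn1 knockout it was 0, and 1 with array weights.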
